A study of Mus musculus with 8 samples.

Results

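The 10 genes described here, Gata6, Timd4, Vsig4, Adgre1, Adgre4, Icam2, Cd5l, Prg4, Cxcl13 and Serpinb2, are known as identity genes of resident peritoneal macrophages. They were chosen by symbol from the 24421 symbols counted, with their higher level in the ABCG1KO libraries already known, and all 10 were among the 13821 genes that passed the filter on low counts. They passed it also when the ABCG1KO libraries were left out. Primary mouse macrophages gave 8 RNA sequencing libraries, of which 3 were wild-type (WT), 3 were labelled LysM-DKO and 2 were labelled ABCG1KO, and every one carried the label normal diet. LysM-DKO was read as a double knockout of epsins, the name the design text uses, under the promoter of lysozyme M, a gene active in macrophages, monocytes and neutrophils. ABCG1KO lacks ABCG1, a transporter that exports cholesterol from macrophages. The labels give no strain, age, sex or tissue of origin, and nothing states whether replicates came from separate animals, so the p-values below measure the spread between these samples, which may be technical.

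Resident peritoneal macrophages, also called large peritoneal macrophages, settle in the cavity early in life and renew themselves there. Their identity depends on the transcription factor GATA6, whose gene is induced by retinoic acid made by neighbouring stromal and mesothelial cells. They carry high F4/80 and ICAM2 and clear dying cells, whereas small peritoneal macrophages derive from blood monocytes and carry MHC class II.

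Between 29567615 and 41888516 reads per library were counted in genes. Levels are given as CPM, the usual per-library unit, here with TMM-scaled library sizes. Abcg1 was at 385 ± 34.6 (SD, n = 3) CPM in WT, 346 ± 162 (SD, n = 3) in LysM-DKO and 66.9 ± 9.16 (SD, n = 2) in ABCG1KO. Epn1 was at 208 ± 19.6 (SD, n = 3), 169 ± 14.1 (SD, n = 3) and 169 ± 18.9 (SD, n = 2) CPM and Epn2 at 7.34 ± 2.08 (SD, n = 3), 8.40 ± 4.20 (SD, n = 3) and 18.5 ± 0.0511 (SD, n = 2) CPM, so neither was absent in the libraries labelled LysM-DKO. The X-inactivation transcript Xist and the Y-linked gene Ddx3y separated the libraries as well. All 3 WT libraries had Xist at 79.1 CPM or more, both ABCG1KO libraries had Xist at 0 and Ddx3y at 92.6 CPM or more, and LysM-DKO replicate 1 had the same pattern as ABCG1KO. Wherever ABCG1KO is set against WT below, genotype and this sex pattern cannot be told apart. Through LysM-DKO replicate 1 the sex pattern also enters LysM-DKO against WT and the correlations over those 6 libraries, where its part was not tested. Reads outside annotated genes made up 10.2% to 13.8% of counted reads in ABCG1KO and 4.26% to 6.07% in the other 6 libraries, and their part in the results was not tested.

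Promoters were searched for GATA and retinoic acid motifs, and 3 are shown: Cd5l, the most abundant member with a match, and Timd4 and Adgre4, which had none and stood far above WT in ABCG1KO. RefSeq promoter windows (build GRCm38.p6) were at hand for 6 of the 10 members, Cd5l, Timd4, Adgre4, Cxcl13, Vsig4 and Serpinb2, in 7 windows of 250 bases before the start site. The GATA motifs AGATAA and TGATAA and the retinoic acid receptor motif DR5, a direct repeat of the half-site, were searched on both strands, with overlaps allowed. Only 2 of the 7 windows held a match: TGATAA in Cd5l, with its first base at position -127 from the start site, and AGATAA at position -41 in 1 of the 2 Serpinb2 windows. Among 32851 promoter windows of the same length, 16.6% held either GATA motif and 0.0091% held the retinoic acid motif. The windows of Cd5l (chr3:87357631-87357880, plus strand), Timd4 (chr11:46810549-46810798, plus strand) and Adgre4 (chr17:55749734-55749983, plus strand) read as follows, 5′ to 3′, with the GATA match in capitals.
Cd5l: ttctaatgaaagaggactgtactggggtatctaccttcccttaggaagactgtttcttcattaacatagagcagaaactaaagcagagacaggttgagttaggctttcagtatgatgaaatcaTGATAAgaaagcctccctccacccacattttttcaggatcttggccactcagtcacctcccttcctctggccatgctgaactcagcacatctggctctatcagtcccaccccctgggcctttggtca
Timd4: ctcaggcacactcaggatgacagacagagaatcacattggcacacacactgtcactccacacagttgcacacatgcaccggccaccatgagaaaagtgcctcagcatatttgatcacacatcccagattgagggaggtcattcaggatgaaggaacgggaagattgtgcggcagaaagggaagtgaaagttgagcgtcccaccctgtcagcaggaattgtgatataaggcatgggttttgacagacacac
Adgre4: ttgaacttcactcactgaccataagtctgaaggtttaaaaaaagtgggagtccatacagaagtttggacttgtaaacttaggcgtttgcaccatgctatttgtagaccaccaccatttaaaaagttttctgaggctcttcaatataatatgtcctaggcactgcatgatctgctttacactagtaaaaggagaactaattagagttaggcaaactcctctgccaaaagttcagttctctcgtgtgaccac

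In the ABCG1KO libraries 8 of the 10 members stood above every WT library, a pattern that 23.9% of all genes tested showed, and the same 8 stood above all 6 other libraries, as did 15.7% of all genes. Vsig4 and Cxcl13 were the exceptions. Because the higher level in ABCG1KO was the reason for choosing these genes, the values that follow are a description with no test. The median log2 fold change of the members in ABCG1KO against WT was 1.98, beside 0.01 over all genes tested. More cells of a type and more RNA per cell cannot be told apart in bulk RNA. The plot of member levels by library shows these values.

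**Figure D1:**
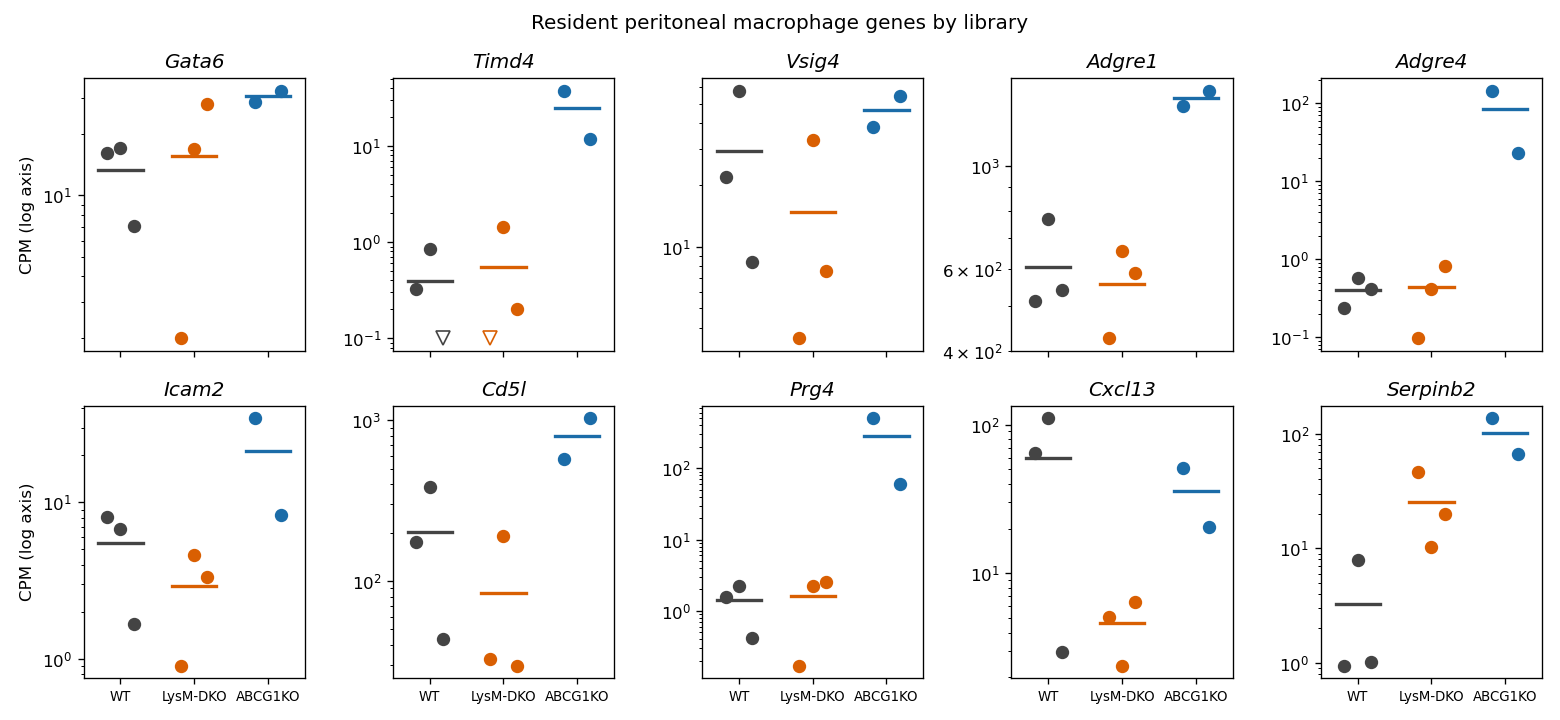
Level of each of the 10 members in each of the 8 libraries, in CPM on a log axis, with points for libraries and horizontal lines for group means. An open triangle marks a library at 0, drawn below the lowest measured value; Timd4, Adgre4 and Prg4 show the widest separation of the 2 ABCG1KO libraries from the other 6.

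Gata6, the transcription factor of this cell identity, was at 16.1, 17.0 and 7.04 CPM in the WT libraries, at 1.99, 16.9 and 27.99 CPM in LysM-DKO and, in ABCG1KO, at 28.7 and 32.6 CPM. The ABCG1KO values lay close together and only slightly above the highest LysM-DKO library, and the WT and LysM-DKO ranges overlapped. The log2 fold change in ABCG1KO against WT was 1.20 (SE 0.843).

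Timd4 encodes TIM-4, a receptor for phosphatidylserine on dying cells. It was nearly absent outside ABCG1KO: 0.322, 0.856 and 0 CPM in WT and 0, 1.44 and 0.200 CPM in LysM-DKO, against 37.4 and 11.9 CPM in ABCG1KO. Where the count was 0, the upper limit for counting error alone, 3 counts, was 0.0776 CPM in WT replicate 3 and 0.0727 CPM in LysM-DKO replicate 1. The log2 fold change was 5.97 (SE 1.65) in ABCG1KO against WT and ranged from 4.91 to 7.26 when single libraries were left out.

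Vsig4 encodes CRIg, a complement receptor that takes up opsonised particles. Its levels were 21.8, 57.7 and 8.41 CPM in WT, 3.56, 33.0 and 7.60 CPM in LysM-DKO and 38.4 and 54.3 CPM in ABCG1KO. WT replicate 2 was above both ABCG1KO libraries, so the groups overlapped, and the log2 fold change of 0.66 (SE 0.977) became 1.61 without that library, 0.22 without WT replicate 3 and 0.38 without ABCG1KO replicate 2.

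Adgre1 encodes F4/80, the adhesion G protein-coupled receptor used to mark mouse macrophages. It was at 512, 767 and 540 CPM in WT, 425, 655 and 589 CPM in LysM-DKO and 1347 and 1451 CPM in ABCG1KO. The ABCG1KO libraries agreed closely and lay clear of the other 6, and the log2 fold change of 1.21 (SE 0.242) stayed between 1.10 and 1.41 when single libraries were left out.

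Adgre4 encodes F4/80-like receptor EMR4 of the same family. It was below 1 CPM in all WT and LysM-DKO libraries, with 0.234, 0.580 and 0.414 CPM in WT and 0.0969, 0.414 and 0.825 CPM in LysM-DKO. In ABCG1KO it was at 145 and 22.8 CPM. With a log2 fold change of 7.66 (SE 0.997) it was next to Prg4 among the members farthest from WT, at 5.78 without ABCG1KO replicate 1 and 8.44 without ABCG1KO replicate 2.

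Icam2, an adhesion molecule that is used to gate large peritoneal macrophages and is also made by endothelium, was at 8.09, 6.74 and 1.66 CPM in WT, 0.897, 4.58 and 3.32 CPM in LysM-DKO and 34.5 and 8.30 CPM in ABCG1KO. ABCG1KO replicate 2 was only just above WT replicate 1. The log2 fold change of 1.96 (SE 0.865) was 0.59 without ABCG1KO replicate 1.

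Among the secreted members, Cd5l, which encodes the macrophage apoptosis inhibitor AIM, was at 176, 383 and 43.2 CPM in WT, 32.8, 190 and 29.6 CPM in LysM-DKO and 577 and 1029 CPM in ABCG1KO. Its WT libraries already differed 8.86-fold from lowest to highest, and both ABCG1KO libraries were above them. The log2 fold change was 2.00 (SE 1.01), and 1.52 to 2.86 when single libraries were left out.

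Prg4 encodes lubricin, a lubricating glycoprotein. It was at 1.55, 2.26 and 0.414 CPM in WT and 0.170, 2.24 and 2.52 CPM in LysM-DKO, whereas ABCG1KO had 499.8 and 60.7 CPM. Both ABCG1KO libraries were far above the others but also far from each other. The log2 fold change was 7.64 (SE 1.26), at 5.42 without ABCG1KO replicate 1 and 8.47 without ABCG1KO replicate 2. Prg4 overlaps Tpr on the opposite strand in the GENCODE M21 annotation, and since the strand setting of the counting is not given, reads of both genes in the overlap cannot be told apart.

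Cxcl13, a chemokine that draws B cells into the body cavities, was the member with the lower mean in ABCG1KO than in WT. It was at 64.7, 110 and 2.98 CPM in WT, 5.06, 2.39 and 6.47 CPM in LysM-DKO and 50.7 and 20.5 CPM in ABCG1KO. The ABCG1KO libraries lay inside the wide WT range, and the log2 fold change of -0.74 (SE 1.13) was 0.05 without WT replicate 2 and -1.30 without WT replicate 3.

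Serpinb2 encodes plasminogen activator inhibitor 2, a protease inhibitor. It was at 0.938, 7.92 and 1.01 CPM in WT, 46.1, 10.2 and 20.1 CPM in LysM-DKO and 137 and 66.3 CPM in ABCG1KO. Its 3 groups did not overlap, in the order WT, LysM-DKO, ABCG1KO. Of all genes tested, 11.0% had every LysM-DKO library above every WT library. Both ABCG1KO libraries were above all 6 others for 15.7%, and the share with both patterns was not counted. The log2 fold change in ABCG1KO against WT was 4.95 (SE 1.05) and became 6.70 without WT replicate 2. Serpinb2 overlaps the annotated Serpinb10 gene on the same strand and shares 10.4% of its 50-base words with it, so its counts are less certain than those of the others.

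Divided by exon length, the members also changed rank. In WT the levels per kilobase were 187 CPM for Adgre1, 98.6 CPM for Cd5l, 51.5 CPM for Cxcl13 and 19.8 CPM for Vsig4, and the remaining 6 were between 0.117 and 2.89 CPM, with Adgre4 lowest. In ABCG1KO Adgre1 at 432 CPM and Cd5l at 395 CPM per kilobase still led, and Prg4 and Serpinb2 came next at 65.5 and 43.2 CPM. Gata6 was then lowest at 4.71 CPM per kilobase.

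The members differed in how they compared between the 2 ABCG1KO libraries. The ratio of replicate 1 to replicate 2 was 8.23 for Prg4, 6.36 for Adgre4, 4.16 for Icam2, 3.14 for Timd4, 2.48 for Cxcl13 and 2.06 for Serpinb2. It was 0.929 for Adgre1, 0.881 for Gata6, 0.708 for Vsig4 and 0.561 for Cd5l. Over all genes tested the ratio had a median of 1.01, with 0.381 at the 5th and 1.92 at the 95th percentile. The 4 members below 1 lay within that range, and the 6 members above 1 lay above its upper end.

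The members were chosen for their rise in ABCG1KO, so LysM-DKO against WT was tested, although it shares the WT libraries with the contrast used in the choice. In edgeR's quasi-likelihood test with Benjamini-Hochberg adjustment over all 13821 genes, 0 of the 10 members passed an adjusted p of 0.05, as 5 genes in all did (0.0362%), 3 of them higher (0.0217%) and 2 lower (0.0145%). Without adjustment 2 members had a p under 0.05, beside 1611 genes in all (11.7%). The members' median log2 fold change was -0.01, beside 0.02 over all genes, with 5 members above 0 and 5 below.

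Those 2 members, Cxcl13 and Serpinb2, had values on opposite sides of 0. Cxcl13 had a log2 fold change of -3.67 (SE 1.10, edgeR quasi-likelihood Benjamini-Hochberg adjusted p = 0.354), and its LysM-DKO values overlapped WT only through WT replicate 3. DESeq2, run as an alternative, called it lower at -3.69 (SE 1.12, Benjamini-Hochberg adjusted p = 0.0449). Serpinb2 had a log2 fold change of 2.95 (SE 0.938, edgeR quasi-likelihood Benjamini-Hochberg adjusted p = 0.354). It was the only member with all 3 LysM-DKO libraries above all WT libraries, as 11.0% of all genes were, and 0 members had all 3 below, as 9.98% of all genes had.

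The other 8 members had log2 fold changes of -1.26 for Cd5l (SE 0.925), -0.99 for Vsig4 (SE 0.895), -0.90 for Icam2 (SE 0.796), -0.12 for Adgre1 (SE 0.219), 0.11 for Adgre4 (SE 0.941), 0.22 for Gata6 (SE 0.767), 0.23 for Prg4 (SE 1.07) and 0.48 for Timd4 (SE 1.45). Their adjusted p-values in edgeR's quasi-likelihood test were between 0.597 and 0.974. The sign for Adgre1 turned with library size alone as the scaling, where its value was 0.04 and all genes had a median of 0.17. The SE was smallest for Adgre1, and for the other 7 it was 0.767 or more, so changes of over 2-fold in these genes lay within the error.

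**Figure D2:**
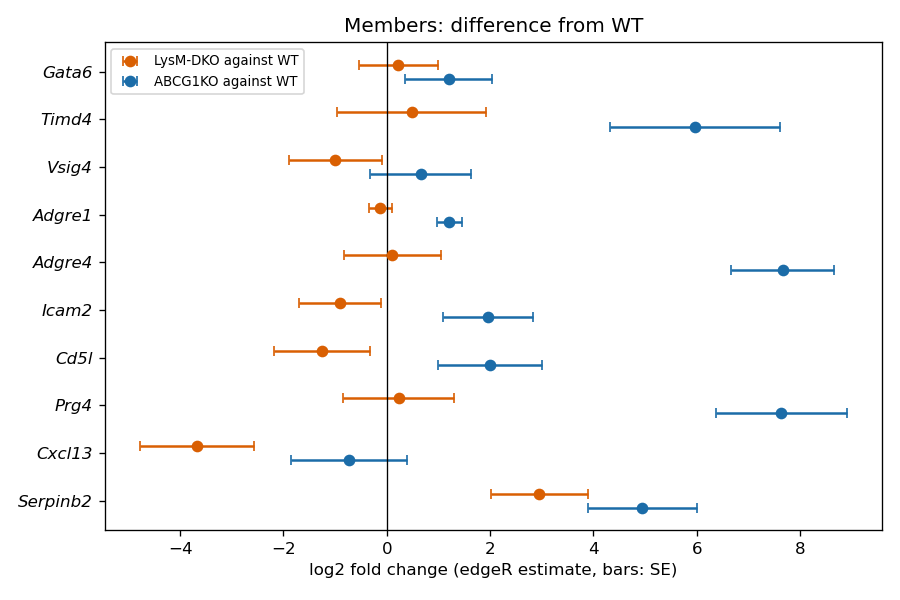
Log2 fold change against WT of each member in LysM-DKO and in ABCG1KO, with bars for standard errors from the same edgeR fit of 8 libraries. The LysM-DKO values run from -3.67 for Cxcl13 to 2.95 for Serpinb2, and the ABCG1KO values from -0.74 for Cxcl13 to 7.66 for Adgre4.

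Variation among the members was also described over the 6 WT and LysM-DKO libraries, leaving out ABCG1KO. The WT libraries were the reference for the rise by which the members were chosen. On log2(CPM + 0.5), 37 of the 45 pairs had a positive Pearson r and the median r was 0.62, with a median Spearman rho of 0.43. Over all pairs of 13815 genes in the same libraries the median r was 0.0016 and 50.1% were positive. The points share libraries and depth, and n is 6, so these are descriptions. Vsig4 and Cd5l had an r of 0.96 and Gata6 and Prg4 of 0.95, whereas Serpinb2 was negative with 8 of the 9 other members. LysM-DKO replicate 1 was lowest of the 6 for Gata6, Vsig4, Adgre1, Adgre4, Icam2 and Prg4, and WT replicate 2 was highest for Vsig4, Adgre1, Cd5l and Cxcl13. The median r was 0.48 without LysM-DKO replicate 1 and 0.46 without WT replicate 2.

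**Figure D3:**
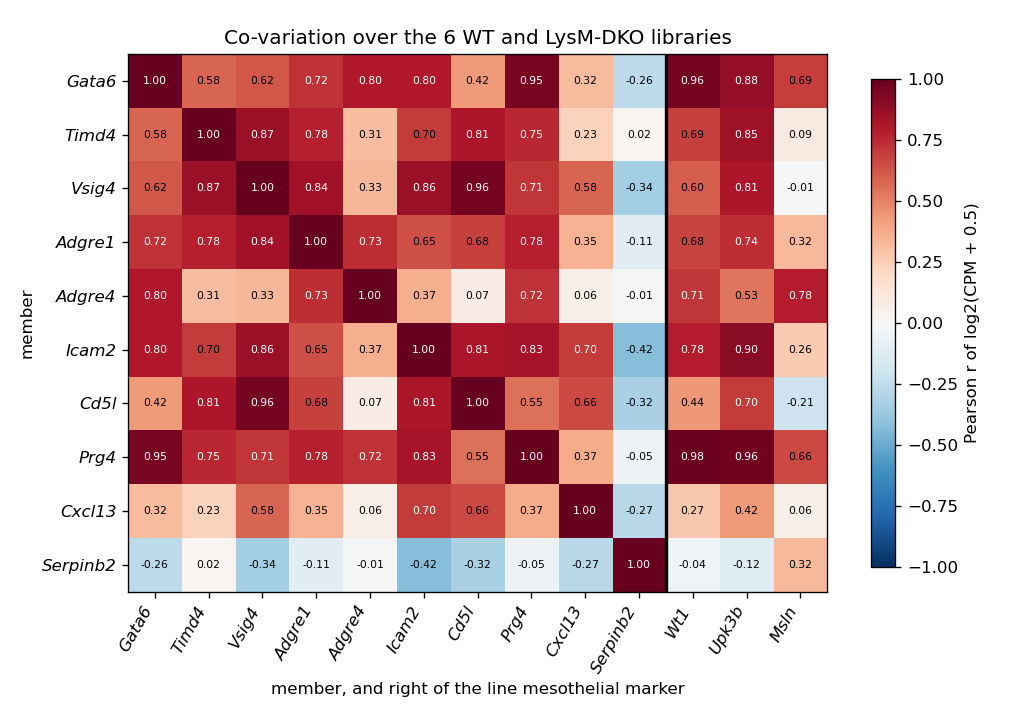
Pearson r between each pair of members over log2(CPM + 0.5) in the 6 WT and LysM-DKO libraries, with colour for r from -1 to 1; the columns right of the line give r with the mesothelial genes Wt1, Upk3b and Msln. Most of the 45 pairs are positive, with a median of 0.62, and the pairs of Serpinb2 stand out as mostly negative.

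Gata6 is also active in mesothelial cells, which line the body cavities and express Wt1. In the 6 WT and LysM-DKO libraries Wt1 was at 13.2, 13.8 and 4.24 CPM in WT and 2.74, 18.7 and 23.9 CPM in LysM-DKO, so its order over the libraries was close to that of Gata6. Gata6 and Wt1 had an r of 0.96 and a rho of 0.94, Prg4 and Wt1 an r of 0.98, and Cd5l and Wt1 an r of 0.44, each over 6 libraries. When single libraries were left out, r was 0.94 to 0.99 for Gata6, 0.97 to 1.00 for Prg4 and 0.17 to 0.92 for Cd5l. Upk3b, another mesothelial gene, had an r of 0.96 with Prg4, 0.90 with Icam2, 0.88 with Gata6, 0.85 with Timd4 and 0.81 with Vsig4. Its r with Serpinb2 was -0.12, and ran from -0.62 to 0.57 when single libraries were left out. For the mesothelial gene Msln, r with the members ran from -0.21 for Cd5l to 0.78 for Adgre4. It was 0.69 with Gata6, 0.66 with Prg4, 0.26 with Icam2, 0.09 with Timd4 and -0.01 with Vsig4. With single libraries left out, r for Vsig4 ran from 0.65 to 0.93 with Upk3b and from -0.34 to 0.94 with Msln. In the ABCG1KO libraries Wt1 was at 2.48 and 13.4 CPM. The ratio of Gata6 to Wt1 was 0.726 to 1.66 in the 6 libraries, 11.6 in ABCG1KO replicate 1 and 2.44 in ABCG1KO replicate 2.

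Of 9 mesothelial genes tested, 0 passed the adjusted threshold in either comparison in edgeR's quasi-likelihood test, with medians of -0.21 in ABCG1KO and 0.62 in LysM-DKO. Their summed level was 9.96 to 51.4 CPM in WT, 6.64 to 101 CPM in LysM-DKO and 8.53 and 38.4 CPM in ABCG1KO. Upk3b was at 18.7, 22.2 and 2.10 CPM in WT, at 1.33, 30.5 and 16.0 CPM in LysM-DKO, whereas ABCG1KO had 1.19 and 2.08 CPM, and Msln was below 4 CPM everywhere. The part of mesothelial RNA in the members' levels was not tested in any of the 3 groups.

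**Figure D4:**
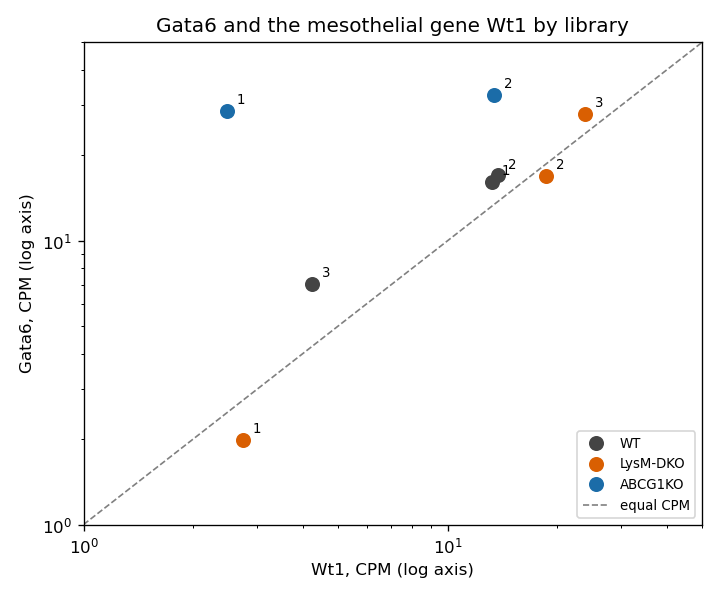
Gata6 against Wt1 in CPM on log axes, 1 numbered point per library, coloured by group, with a dashed line at equal CPM. The 6 WT and LysM-DKO libraries lie near that line with ratios of 0.726 to 1.66, and the ABCG1KO libraries lie above it at 11.6 and 2.44.

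A companion list of 25 other genes of large peritoneal macrophages was compared in the same way. In ABCG1KO against WT, 12 of the 25 rose and 1 fell at an adjusted p of 0.05 in edgeR's quasi-likelihood test, beside 7.21% of all genes higher and 8.83% lower. The median log2 fold change of the list was 1.69. The summed level of the list was 3090 to 4023 CPM in WT, 3422 to 5026 CPM in LysM-DKO and 25897 and 11889 CPM in the ABCG1KO libraries. Most of the ABCG1KO sums came from Saa3 (9953 and 2971 CPM), Fn1 (7071 and 3524 CPM) and Thbs1 (2314 and 2285 CPM). By gene, 14 of the 25 had both ABCG1KO libraries above all 6 others, as did 15.7% of all genes tested. These genes were listed with earlier results of these data known, so the list is not independent evidence of its direction.

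The companion genes named here are those with the lowest adjusted p. Thbs1, which encodes thrombospondin 1, rose by 3.53 on the log2 scale (SE 0.506, edgeR quasi-likelihood adjusted p = 0.0040), and Fn1, which encodes fibronectin, rose by 2.25 (SE 0.374, adjusted p = 0.0068). Both kept their call in every alternative run, including when each library was left out. Ltbp1, which binds latent TGF-beta, rose by 4.19 (SE 0.824, adjusted p = 0.0158 in the same test), and was not called without WT replicate 1, WT replicate 2 or ABCG1KO replicate 1.

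Alox15, the lipoxygenase that oxidises membrane lipids, was at 0.909, 1.21 and 0.0776 CPM in WT, 0, 2.36 and 0.250 CPM in LysM-DKO and 884 and 135 CPM in ABCG1KO. Its log2 fold change was 9.45 (SE 1.60, edgeR quasi-likelihood adjusted p = 0.0089), and without ABCG1KO replicate 1 it was 7.52 (adjusted p = 0.0613). The scavenger receptor Marco rose by 9.36 (SE 2.00), the acute phase protein Saa3 by 6.64 (SE 1.503), the protease inhibitor Slpi by 6.28 (SE 1.28), the ectonucleotidase Nt5e by 6.27 (SE 1.46) and the ficolin Fcna by 3.95 (SE 0.835). The tetraspanin Cd9 fell by 1.21 (SE 0.289). These 6 genes had adjusted p-values of 0.0179 to 0.0271 in that test, and each lost its call without WT replicate 1 and without ABCG1KO replicate 1.

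Among the 12 companion genes that rose, ABCG1KO replicate 1 was at or above replicate 2 for all 12, with ratios of 1.01 to 8.80 and a median of 2.57. Thbs1 was nearly equal in both. The ratios above 3 of Timd4, Adgre4, Icam2 and Prg4 are within that range. Over all 25 companion genes, called or not, the ratio ran from 0.678 to 8.80, and of the members only Cd5l, at 0.561, was outside it. Without ABCG1KO replicate 1 only 2 companion genes kept the call in the higher direction, and the count was 3 without WT replicate 1 and 4 without WT replicate 2. In LysM-DKO against WT 0 of the 25 were called in edgeR's quasi-likelihood test (median -0.21), and DESeq2 called 1, Thbs1, at 1.37 (Benjamini-Hochberg adjusted p = 0.0425).

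Markers of other macrophage types were compared by edgeR's quasi-likelihood test with adjustment over all genes. Of 15 genes of small peritoneal macrophages, 12 were not called in ABCG1KO against WT, 2 rose and 1 fell. Over all genes 7.21% rose and 8.83% fell. The list's median log2 fold change was still 1.92, beside 1.69 for the companion list. The MHC class II genes H2-Aa, H2-Ab1 and H2-Eb1 were in both ABCG1KO libraries above all 6 others, though not called. Mrc1, Clec10a and Itgax were lower in mean in ABCG1KO than in WT. Retnla rose by 7.88 (SE 1.00, adjusted p = 0.0022), the monocyte chemokine receptor Ccr2 by 4.61 (SE 0.660, adjusted p = 0.0045), and Itgax, which encodes CD11c, fell by 3.17 (SE 0.571, adjusted p = 0.0102). Outside ABCG1KO Retnla had at most 8 counts per library, so it passed the count filter only through ABCG1KO. The summed level of the small peritoneal macrophage list was 6453 and 7123 CPM in ABCG1KO. It was 2417 to 6510 CPM in WT and 1141 to 2899 CPM in LysM-DKO. Of 10 monocyte genes 4 rose and 0 fell, with summed levels of 227 and 91.0 CPM in ABCG1KO and 11.4 to 60.2 CPM in the other 6 libraries. Ly6c2, among those that rose, also passed the filter only through ABCG1KO, with at most 10 counts per library elsewhere. The part of such cells in the members' values was not tested.

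The pan-macrophage list of 16 had a median of -0.01, with 4 genes higher and 2 lower. For this list and those below, the share over all genes was 7.21% higher and 8.83% lower in ABCG1KO against WT. C1qa rose by 2.20 (SE 0.386, adjusted p = 0.0087) and Csf1r by 1.19 (SE 0.249, adjusted p = 0.0172), and Lgals3 fell by 2.04 (SE 0.291, adjusted p = 0.0036), in edgeR's quasi-likelihood test. The summed level was 30407 to 31387 CPM in WT, 20772 to 24084 CPM in LysM-DKO and 28706 and 25675 CPM in ABCG1KO. Csf1r lost its call without WT replicate 2 and without ABCG1KO replicate 1. Of the other tissue macrophage lists, 6 of 7 microglia genes and 4 of 7 red pulp genes rose, 1 of 8 Kupffer cell genes rose, and 1 of 6 alveolar genes rose while 3 fell. Outside ABCG1KO the microglia gene Sall1 had 0 counts and Siglech at most 3 per library, so both passed the count filter only through ABCG1KO. The Kupffer gene Clec4f and the alveolar gene Car4 were at 0 in all 8 libraries, but other genes of those lists were not: Cd163 was at 55.7 and 26.4 CPM in ABCG1KO, and in WT Atp6v0d2 was at 1351 to 1748 CPM and Fabp4 at 359 to 505 CPM.

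**Figure D5:**
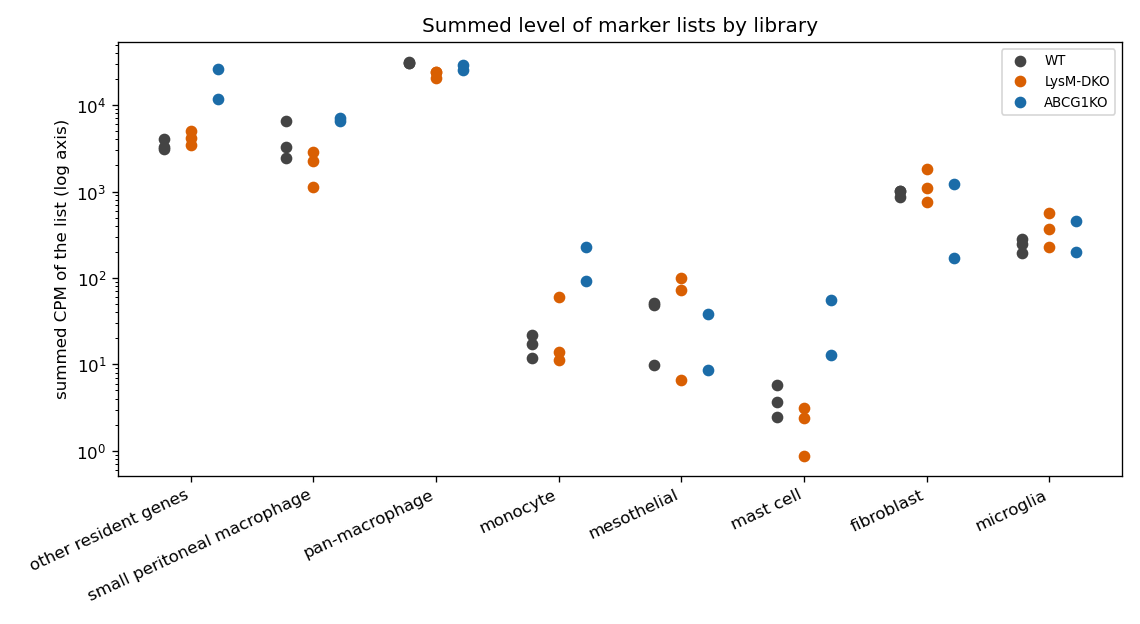
Summed CPM of 8 marker lists in each library, on a log axis, with points coloured by group. The companion list, named other resident genes on the axis, is at 25897 and 11889 CPM in ABCG1KO against 3090 to 5026 CPM in the other 6 libraries. Saa3, Fn1 and Thbs1 make up most of the ABCG1KO values. The mesothelial list shows no such separation.

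Among markers of other cell types, the B cell list summed to 141 and 150 CPM in ABCG1KO and 206 to 313 CPM in the other 6 libraries, and most of that sum was Bhlhe41, at 123 and 146 CPM in ABCG1KO and 172 to 309 CPM elsewhere. The list of T and NK cells was at 2.07 and 3.92 CPM in ABCG1KO and 2.47 to 6.85 CPM elsewhere. None of the 9 B cell genes and 5 T and NK cell genes tested was called in edgeR's quasi-likelihood test in either comparison. Of 5 neutrophil genes 1 rose, of 6 mast cell genes 1 (Kit) and of 6 dendritic cell genes 1 (Siglech), while of 8 fibroblast genes 2 fell (Lum and Pdpn). Of all genes tested, 7.21% rose and 8.83% fell in ABCG1KO against WT. Outside ABCG1KO Kit had at most 6 counts per library and Siglech at most 3, so both passed the count filter only through ABCG1KO. The neutrophil list summed to 371 and 228 CPM in ABCG1KO and 84.1 to 150 CPM elsewhere. Most of that sum was Csf3r, the gene that rose, at 348 and 204 CPM in ABCG1KO and 59.6 to 131 CPM elsewhere. The fibroblast list summed to 172 and 1227 CPM in ABCG1KO and 748 to 1797 CPM elsewhere. The calls of Lum and Pdpn were lost without any single WT library and without ABCG1KO replicate 1. The mast cell list summed to 55.5 and 12.95 CPM in ABCG1KO and to at most 5.85 CPM elsewhere.

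The retinoid pathway acts upstream of Gata6. Of its 13 genes tested, Rxra, a nuclear receptor that pairs with retinoic acid receptors, was the only one that passed in ABCG1KO, rising by 0.96 (SE 0.144, edgeR quasi-likelihood adjusted p = 0.0045). Over all genes tested, 7.21% passed as higher and 8.83% as lower in ABCG1KO, so 1 call in 13 is near that share. In LysM-DKO against WT 0 of 13 passed in the same test. Aldh1a2, which makes retinoic acid, was at 10.4, 12.8 and 5.93 CPM in WT, 2.16, 6.80 and 13.5 CPM in LysM-DKO and 17.2 and 25.3 CPM in ABCG1KO, with a log2 fold change of 1.13 (SE 0.643) that was not called. Of 4 other GATA genes tested, 0 passed in either comparison, and their summed level stayed below 10 CPM.

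The genes whose pattern was most like the members' were found by correlation with their mean z-score over the 8 libraries, among other genes with a mean of at least 10 CPM. The points share libraries and depth and include the ABCG1KO libraries used in choosing the members. The highest Pearson r was for Saa3 at 0.992, followed by Stx11 at 0.987, Krt80 at 0.986, Hmox1 at 0.984 and Bst1 at 0.983. Over the 6 WT and LysM-DKO libraries alone, the highest were Vmp1 at 0.979, Myrf and Cpne2 at 0.976, Ly6e at 0.972 and Saa3 at 0.965. Saa3 was the only gene both among the 10 closest over 8 libraries and among the 5 closest over 6.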

How the data were processed

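RNA was measured by sequencing in 8 libraries, grouped by the labels (WT 3, LysM-DKO 3, ABCG1KO 2). The deposited files hold raw read counts per gene symbol from HTSeq, as their closing counter lines show. The submitters' processing notes name STAR 2.7.9a, TopHat, HTSeq 0.11.2, DESeq2 1.30.1, limma and mm10, with no role or order, and the annotation and strand setting are not given in the sources used here.

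The counts went into edgeR 4.0.16 under R 4.3.3. Low genes were removed by filterByExpr, library sizes were scaled with TMM factors, and all 8 libraries entered 1 robust quasi-likelihood fit with a term per group. Genes were called at a Benjamini-Hochberg adjusted p under 0.05 over all genes. DESeq2 1.42.0, other scalings, no count filter, a replicate block, fits of the compared groups alone and leaving out each library were alternatives. CPM values are counts divided by TMM-scaled library sizes. A value of 0.5 was added to CPM before logs for correlations. A count of 0 was taken to allow 3 counts. Exon lengths and overlaps came from GENCODE M21, with names matched by symbol. The fit was tested on simulated data.

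The members, gene lists and tests were chosen with earlier results of these data known. Every member is named; of the companion list up to 10 genes with the lowest adjusted p are named, of other lists up to 3, and Msln, Upk3b and Wt1 always. Aldh1a2, Clec4f, Car4, Fabp4, Bhlhe41, H2-Aa, H2-Ab1, H2-Eb1, Mrc1, Clec10a, Ly6c2, Sall1 and the sex-linked genes were named after their values were seen. The list genes Muc16, Ighm, Trac and Ly6g were not analysed here. Counter lines that name no gene were left out of library sizes.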

Additional observations from a re-analysis of the deposited data

How the results depend on the processing

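Results with 2 ABCG1KO libraries depend on each of them, and no p-value of the members exists in that comparison. Of 926 alternative values, 795 kept their direction and side of the threshold, 80 no longer passed, 1 newly passed, 15 reversed and 35 moved; the cause was not tested.

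In LysM-DKO against WT, DESeq2 called 1 member and 1 companion gene where edgeR called 0, and members under an unadjusted p of 0.05 numbered 2 to 4 when single libraries were left out. Genes called numbered 5, and 8 with the compared groups alone, 299 with DESeq2 and 0 to 8 with single libraries left out. Reversed members were Gata6 (-0.50 to 0.73 with single libraries left out), Timd4 (-1.95 to 1.75), Adgre4 (-0.68 to 0.57), Prg4 (-0.22 to 0.75) and Adgre1 (-0.27 to 0.056), which was 0.035 with library size only.

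In ABCG1KO against WT the members' median of 1.98 was 2.22 with library size only, where all genes had a median of 0.25, and 1.53 to 2.49 with single libraries left out. The 8 members above all WT libraries remained 8 in count under each scaling and were 9 without WT replicate 2. Genes called numbered 2216, and 853 (without ABCG1KO replicate 1) to 2090 with single libraries left out, 3239 with DESeq2, 2930 with library size only and 1589 with the compared groups alone. Companion genes called higher numbered 12, and 6 with no count filter and 2 to 13 with single libraries left out; those called lower numbered 0 to 1. Wt1 was -0.39, and -2.08 to 0.35 with single libraries left out. The median r of the members was 0.46 to 0.71 with single libraries left out.

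Nothing in the labels states whether replicate numbers pair the samples. The deviations of same-numbered WT and LysM-DKO libraries from their group means had an r of 0.04, 0.43 and -0.01. For differently numbered libraries r ran from -0.29 to 0.23. With the replicate block, 0 genes were called in LysM-DKO and 1456 in ABCG1KO, the ABCG1KO median of the members was 1.76, and the calls of companion genes were 6 higher and 0 lower. For LysM-DKO, the block gave -0.14 for Gata6 and -0.0084 for Adgre4.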
